A study of Oncorhynchus mykiss with 14 samples.

Results

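Eggs of rainbow trout (Oncorhynchus mykiss) from clutches with high survival of control offspring were compared with eggs from clutches with lower survival. The comparison used 7 of the 14 libraries of the series, all of control eggs, and every gene detected on average over the 14. Females F3, F4 and F6, whose control offspring survived to the eyed stage at above 92%, formed the high-survival group, and females F1, F2, F7 and F8, at below 89%, the low-survival group. The names stand for these limits only. Whether survival itself differed between the females was not tested here, and the paper calls that of their control offspring comparable. The groups are thus 3 and 4 libraries, with 1 library per female, and the replicate is the female.

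All 7 females were of the Rutki strain, and their control eggs had been inseminated with non-irradiated sperm of rainbow trout. Other eggs of the same clutches had been activated with UV-irradiated sperm of European grayling for gynogenesis, the development of an embryo with maternal chromosomes only, and they give a second library per female. The labels give the genotype as XX, doubled haploids, for both kinds of eggs. In the paper, doubled haploids were made with UV-irradiated sperm and a pressure shock, and control eggs received neither. The label therefore cannot describe the embryos of control eggs. RNA of 2 to 3 eggs entered a library, so each value is the level in a few eggs of 1 clutch, and levels of all eggs of a clutch were not measured. High survival held 1 female with increased and 2 with decreased competence for gynogenesis, and low survival held 3 and 1, so survival and competence overlap in part. In bulk RNA of whole eggs, fewer transcripts per egg and fewer eggs that hold a transcript cannot be told apart.

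A fish egg carries mRNA and protein that the mother stored during oogenesis. This store runs meiosis, fertilization and the first cleavages, since the genome of the embryo stays almost silent until the mid-blastula stage. Cyclins, spindle proteins, mitochondria, yolk lipids and regulators of maternal mRNA all come with the egg, and their amounts can differ between mothers.

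Assigned counts were 45735498 to 57014149 per library in high survival and 34535902 to 56474502 in low survival, the lowest being that of F7. A library held counts for 25608 to 28497 genes, 68.0% to 72.9% of uniquely mapped counts lay in genes, and the 10 most abundant genes held 2.06% to 2.64% of them. Normalized counts are counts divided by DESeq2 size factors over the 14 libraries, and a gene was detected at a mean above 1, which 30919 of 64494 genes reached. Nearly all deposited counts are even numbers, so a count of 2 may stand for 1 fragment and a level for fewer fragments than its number, and the cause was not tested. Names were at hand only for genes of the study's lists, so that none of the markers fixed for follicle cells, blood cells, sperm or liver could be looked up. Their part in any difference was not tested. Of 12 defining transcripts of the egg, only ccnb1, the cyclin of M phase, had a name at hand, with 91975, 95788 and 82523 normalized counts in F3, F4 and F6 and 129180.0, 139380.0, 110050.0 and 119930.0 in F1, F2, F7 and F8.

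The whole transcriptomes of the control eggs did not part by survival on any of the 3 components examined. The mean correlation across detected genes, on log2(normalized count + 1), was 0.919 for the 3 pairs of libraries within high survival, 0.917 for the 6 pairs within low survival and 0.918 for the 12 pairs between the groups. The first principal component held 21.9% of the variance and set F6 of the high-survival and F8 of the low-survival group apart from the other 5 females. The second held 18.8% and set F7 apart. On component 1 libraries of both groups were interspersed. On component 3, with 17% of the variance, the high-survival libraries lay at -159.1, -20.6 and 2.34 in F6, F4 and F3, and the low-survival libraries at -20.2, 22.6, 55.7 and 119.2 in F7, F2, F1 and F8, so that F3 and F7 alone were out of order.

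**Figure D1:**
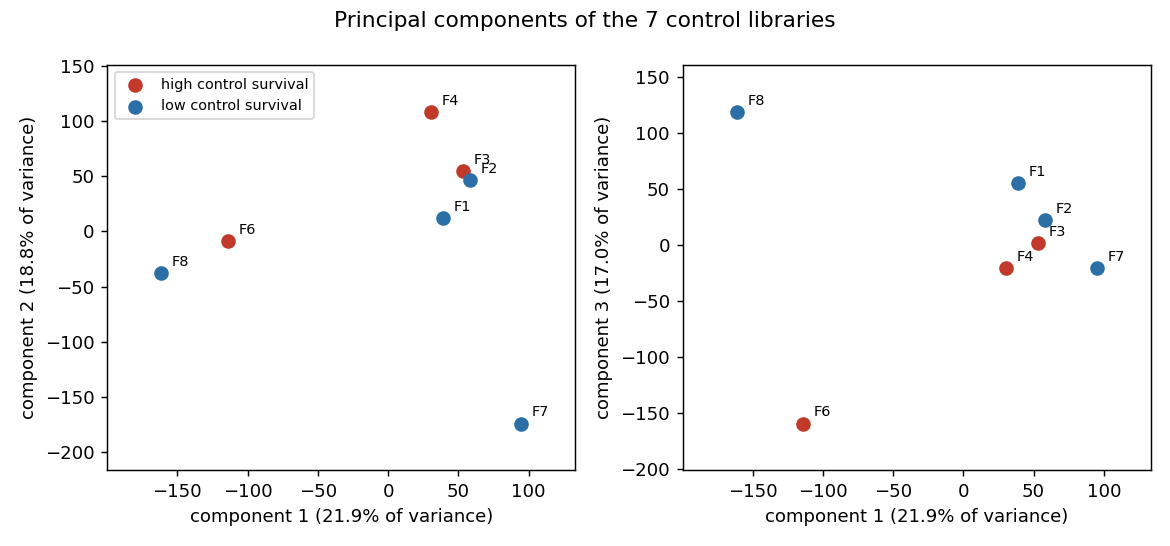
Principal components of log2(normalized count + 1) over the detected genes, each point 1 control library labelled with its female, red for high and blue for low control survival. Component 1 (21.9% of variance) parts F6 and F8 from the rest, component 2 (18.8%) parts F7, and on component 3 (17%) F6 and F8 lie at opposite ends.

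With all detected genes tested by the quasi-likelihood test of edgeR, 3 genes differed between high and low survival at an adjusted p below 0.05. Of 30919 genes, 2 were higher in high survival (0.00647% of genes tested) and 1 was lower (0.00323%). At an unadjusted p below 0.05 there were 1764 genes, 1022 higher and 742 lower. The median log2 fold change over all detected genes was 0.02 after TMM scaling, which centres the fold changes. DESeq2's Wald test called more, 32 higher (0.128% of 25097 genes) and 26 lower (0.104%), with the 3 edgeR genes among its 58. On simulated data of this design, edgeR recovered 2.99% of genes changed 2-fold, 34.3% of those changed 4-fold and 59.1% of those changed 8-fold, and it called 17 unchanged genes of 30919. A gene that was not called here may therefore still differ several-fold. The 17 false calls stood beside 2, 23 and 39 recovered genes, a larger share than the 0.05 that the adjustment aims at on average. In the simulation 67, 67 and 66 genes, all with a mean scaled count of at least 10, were set to change 2-, 4- and 8-fold. Recovery of genes with lower counts was not tested. The simulation was 1 data set, so its number of false calls cannot be set against the 3 calls in the data. Any of the 3 may still be false, which was not tested.

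**Figure D2:**
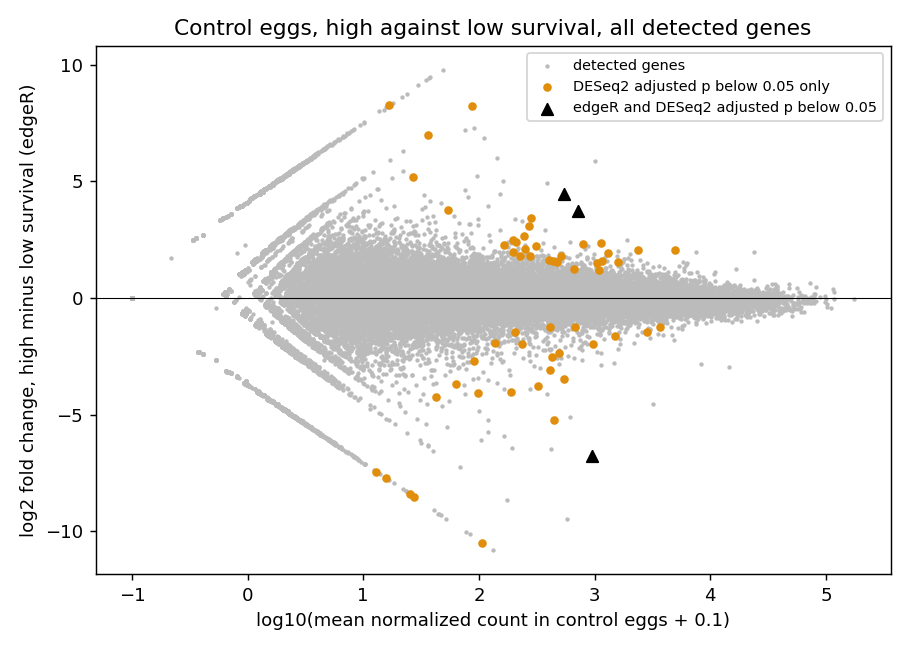
Fitted log2 fold change of high minus low survival against the mean normalized count in control eggs (log10 scale), each grey point 1 of 30919 detected genes. Black triangles are the 3 genes called by edgeR and DESeq2, and orange points the other genes called by DESeq2, 30 of them above and 25 below the line at 0.

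The gene that fell in high survival was nearly absent there and abundant in every low-survival clutch. ENSOMYG00000039177, a protein-coding gene without a name in the sources used here, had 15, 25.4 and 2.18 normalized counts in F3, F4 and F6, against 1504, 1570.3, 1830.3 and 1674 in F1, F2, F7 and F8. It was 116-fold lower in the high-survival group on normalized counts, with a log2 fold change of -6.78 ± 0.70 (SE, edgeR adjusted p = 0.00781). The gene is in the study's own list for control eggs, which was chosen by correlation with control survival in these same libraries.

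Both genes that rose were present in every library but far lower in the low-survival clutches. ENSOMYG00000037193 had 1552, 1021 and 1028 normalized counts in F3, F4 and F6, against 61.6, 25.6, 72.5 and 67.1 in F1, F2, F7 and F8, a 21.2-fold difference of means (log2 fold change 4.44 ± 0.47, SE, edgeR adjusted p = 0.00781). ENSOMYG00000069972 had 2064, 1393 and 1139.7 normalized counts in F3, F4 and F6, against 150.2, 96.7, 96.7 and 132 in F1, F2, F7 and F8, a 12.9-fold difference (log2 fold change 3.72 ± 0.40, SE, edgeR adjusted p = 0.00781). Neither has a name in the sources used here, and neither is in the study's list. Their sequences were not compared, so whether both share reads was not tested. For each of the 3 genes the groups did not overlap, beside 3.82% of all detected genes without overlap and higher and 3.12% lower. The exact two-sided permutation p was 0.0286, the smallest that 35 choices of 3 libraries of 7 allow. Both come from the libraries that also chose these genes, so they add no support to the calls. Whether the 3 genes passed the threshold depended on single females and on the model. Without F7 edgeR called 0 genes (1615 at an unadjusted p below 0.05), and their adjusted p was 0.0624, 0.0714 and 0.0624 in the order ENSOMYG00000039177, ENSOMYG00000069972 and ENSOMYG00000037193, with log2 fold changes of -6.74, 3.63 and 4.57, and without F2 ENSOMYG00000069972 was lost (adjusted p = 0.0542, log2 fold change 3.63). With survival as a continuous covariate, and with limma-trend on log2 CPM, 0 genes were called (2245 and 1992 at an unadjusted p below 0.05).

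The second pool of eggs of each clutch, those activated for gynogenesis, gave the same picture for these 3 genes. ENSOMYG00000039177 had 7.36, 47.9 and 5.65 normalized counts in F3, F4 and F6, against 1885, 1792, 1797 and 1878 in F1, F2, F7 and F8, and the difference was also called there, as the only gene of that test (log2 fold change -6.51, edgeR adjusted p = 0.0475). ENSOMYG00000037193 had 2311, 796 and 743 normalized counts in F3, F4 and F6, against 51.5, 99.97, 9.41 and 38.3 in F1, F2, F7 and F8, with a log2 fold change of 4.71 (edgeR adjusted p = 0.233). ENSOMYG00000069972 had 3172, 1132 and 938 normalized counts in F3, F4 and F6, against 63.9, 116, 20.4 and 87.6 in F1, F2, F7 and F8, with a log2 fold change of 4.62 (edgeR adjusted p = 0.112). In all 3 genes the groups stayed apart in both pools, although in gynogenetic eggs the call of ENSOMYG00000039177 was lost without any 1 of F1, F2, F3, F7 and F8. The pools share their mothers, so they are other eggs of the same clutches and not other females.

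**Figure D3:**
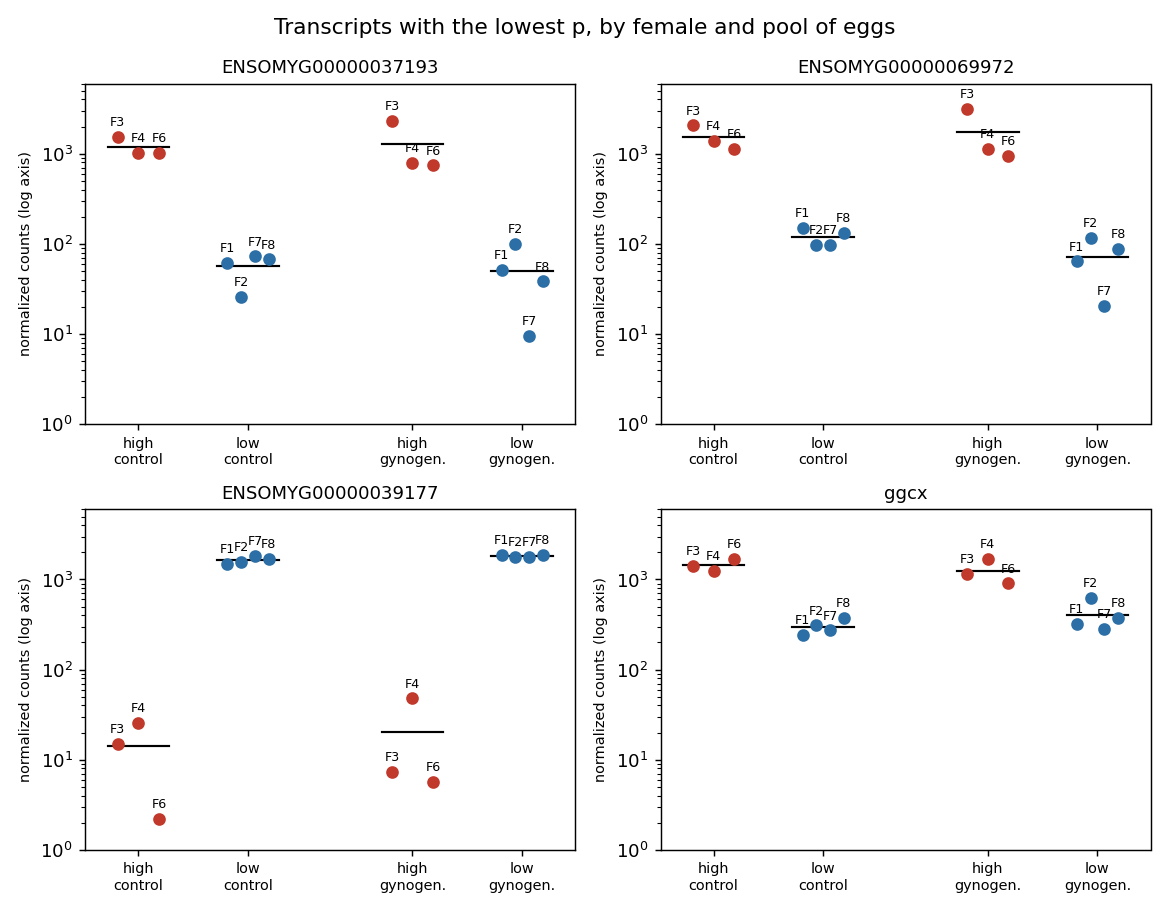
Normalized counts (log axis) of the 3 called genes and ggcx in high- and low-survival clutches, in control eggs (left pair) and gynogenetic eggs (right pair), each point 1 library labelled with its female and each bar a group mean. In every panel and in both pools the high-survival points lie wholly to one side of the low-survival points, below them only for ENSOMYG00000039177.

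Some transcripts were present in one group and absent in the other. Genes with at least 10 normalized counts in every library of a group and under 1 in every library of the other numbered 2 for high and 1 for low survival. ENSOMYG00000028393 had 48.4, 56.2 and 10.9 normalized counts in F3, F4 and F6 and 0 in each of F1, F2, F7 and F8, and its gynogenetic eggs had 29.4, 189.6 and 9.89 and again 0. ENSOMYG00000040734 had 23.4, 36.3 and 10.9 normalized counts in F3, F4 and F6 and 0 in the low-survival clutches, but in gynogenetic eggs 3.68, 7.98 and 4.24, against 16.5 in F1 and 0 in F2, F7 and F8, with overlap. ENSOMYG00000035118 had 0 in F3, F4 and F6 and 19.2, 11.8, 15.1 and 62.8 in F1, F2, F7 and F8, but in gynogenetic eggs it was found only in F6 of the high-survival group, at 53.7, and F1 of the low-survival group, at 63.9. These genes were singled out after their values were seen, none passed edgeR's test, and a count of 0 in a library limits its level only at this depth.

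The groups did not overlap for a small share of all detected genes. All 3 high-survival libraries lay above all 4 low-survival libraries for 1181 genes (3.82% of those detected) and below them for 964 (3.12%). In gynogenetic eggs of the same clutches the numbers were 1165 (3.77%) and 878 (2.84%). The genes above in both pools were 247, which is 20.9% of the control and 21.2% of the gynogenetic genes, and those below in both were 204, or 21.2% and 23.2%. The pools share their females, so these shares are a description. A gene above in one pool and below in the other was seen for 0 of the 1181 and 1 of the 964 genes. Among the 23938 genes that averaged 10 or more normalized counts, 1978 were fitted at over 2-fold higher and 1527 at over 2-fold lower, of which 3 genes in all were called.

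Genes with a known product come from the study's list for control eggs. Of the 220 genes of that list that were detected, 115 were fitted higher and 105 lower in high survival, with 108 and 102 without overlap (background 3.82% and 3.12%). Since that list was built on correlation with the survival that also defines the groups, this separation was fixed by its choice and is given as a description. Within it, the higher genes had a median log2 fold change of 1.07 and a median level of 293 normalized counts over the 7 control libraries, and the lower genes had a median log2 fold change of -0.70 and a median level of 1840.0. Of this list, edgeR called only ENSOMYG00000039177.

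The named gene nearest to the threshold was ggcx, gamma-glutamyl carboxylase, an enzyme of the endoplasmic reticulum that modifies vitamin K-dependent proteins. It had 1399.9, 1257 and 1679 normalized counts in F3, F4 and F6, against 243, 309.7, 272 and 373 in F1, F2, F7 and F8, a 4.83-fold difference with a log2 fold change of 2.30 ± 0.34 (SE). Its adjusted p was 0.169 with edgeR and 1.65e-08 with DESeq2, and 0.045 when all 14 libraries were fitted together, in a fit that treats the 2 libraries of a female as independent although they are correlated. Gynogenetic eggs had 1146, 1689 and 904 normalized counts in F3, F4 and F6, against 323, 625, 282 and 374 in F1, F2, F7 and F8, so that the groups did not overlap there either.

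Further named genes that were higher in all high-survival clutches did not pass edgeR's test, and their lowest adjusted p was 0.716. KPNA3, an importin alpha that carries proteins into the nucleus (chromosome 22, 7453053 to 7472601 in RefSeq's annotation of USDA_OmykA_1.1), had 1622, 1738 and 1662 normalized counts in F3, F4 and F6, against 785, 570.1, 553 and 478 in F1, F2, F7 and F8 (log2 fold change 1.52 ± 0.32, SE, DESeq2 adjusted p = 0.00349). Its levels were alike within the high-survival group. In gynogenetic eggs it had 563, 1637 and 367 normalized counts in F3, F4 and F6, against 628, 1004, 362 and 580.3 in F1, F2, F7 and F8, so in those eggs the groups overlapped and the level of F3 and F6 was near that of the low-survival clutches. The partner cse1l, which returns importin alpha to the cytoplasm, had 8074 to 11071 normalized counts in high and 4102 to 7877 in low survival (log2 fold change 0.70). The groups were apart by little for cse1l. In gynogenetic eggs its sign was the same, but the groups did not stay apart.

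trim8b, a RING-finger protein of the TRIM family of ubiquitin ligases, was low in all libraries and near 0 in low survival. It had 55.1, 70.7 and 54.6 normalized counts in F3, F4 and F6, against 3.85, 0, 0 and 2.17 in F1, F2, F7 and F8 (DESeq2 adjusted p = 0.00215), and in gynogenetic eggs 29.4, 67.9 and 90.4 normalized counts in F3, F4 and F6, against 8.24, 23.2, 14.1 and 0 in F1, F2, F7 and F8. A G(i) alpha-1-like subunit, whose family inhibits adenylyl cyclase and with it cyclic AMP signalling (ENSOMYG00000039638, chromosome 1, 39596545 to 39618668), had 1695, 1544 and 1489 normalized counts in F3, F4 and F6, against 705, 690.5, 719 and 732 in F1, F2, F7 and F8. The 4 low-survival values lay close together, and the log2 fold change was 1.18 ± 0.30 (SE, DESeq2 adjusted p = 0.0205). Gynogenetic eggs had 2366, 1976 and 2124 normalized counts in F3, F4 and F6, against 1044, 1237, 790.3 and 701 in F1, F2, F7 and F8, again without overlap.

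Others of the higher genes were cyb5b, zgc:123305 and unm_sa821. cyb5b, a cytochrome b5 of the outer mitochondrial membrane that donates electrons, had 2306, 3147 and 3109 normalized counts in F3, F4 and F6, against 1036, 1093, 1609.8 and 1254 in F1, F2, F7 and F8 (log2 fold change 1.23 ± 0.29, SE), and the difference in gynogenetic eggs was of similar size (1.12). The LPIN2-like zgc:123305, of the lipins that turn phosphatidate into diacylglycerol (chromosome 7, 74788801 to 74813362), had 996, 952 and 825 normalized counts in F3, F4 and F6, against 383, 458, 414 and 286 in F1, F2, F7 and F8 (log2 fold change 1.30), but the log2 fold change was 0.27 in gynogenetic eggs, where the groups overlapped. unm_sa821, named after a zebrafish mutant, had 474, 301 and 393 normalized counts in F3, F4 and F6, against 44.3, 57.2, 103 and 97.5 in F1, F2, F7 and F8 (DESeq2 adjusted p = 0.000465).

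Among genes lower in every high-survival clutch, an egg envelope gene and a ubiquitin ligase were among those with the lowest p, though neither was called at an edgeR adjusted p of 0.812. The zona pellucida sperm-binding protein 4-like gene ENSOMYG00000006886, one of the envelope glycoproteins that surround the egg (chromosome 8, 57697014 to 57700551), had 7867, 8706 and 8757 normalized counts in F3, F4 and F6, against 16821, 14470.0, 13679 and 15230.0 in F1, F2, F7 and F8. The log2 fold change was -0.80 ± 0.20 (SE), and in gynogenetic eggs, with 11658, 6070.2 and 9368 normalized counts in F3, F4 and F6, against 23462, 17372, 14717 and 14033 in F1, F2, F7 and F8, it was -0.92 and the groups were again apart. MARCHF7, a membrane-associated RING-finger ligase, had 6240.5, 5189.9 and 7842 normalized counts in F3, F4 and F6, against 13772, 14273, 12389 and 11348 in F1, F2, F7 and F8 (log2 fold change -0.98 ± 0.22, SE), and the groups overlapped in gynogenetic eggs.

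Signalling genes with lower values in high survival included 3 that DESeq2 called. PAK3, a kinase that acts downstream of Rac and Cdc42 on the cytoskeleton, had 61.7, 41.7 and 54.6 normalized counts in F3, F4 and F6, against 181, 209, 205 and 217 in F1, F2, F7 and F8 (log2 fold change -1.91 ± 0.49, SE, DESeq2 adjusted p = 0.00307). STK11, the kinase also called LKB1 that activates AMP-activated kinase, had 220.2, 254 and 214 normalized counts in F3, F4 and F6, against 485, 560.3, 538 and 624 in F1, F2, F7 and F8 (DESeq2 adjusted p = 0.0359). calcb, a calcitonin-related peptide gene (chromosome 30, 9418139 to 9449834), had 98.4, 94.3 and 107 normalized counts in F3, F4 and F6, against 268, 341, 248 and 277 in F1, F2, F7 and F8 (DESeq2 adjusted p = 0.0254). In all 3 the fitted difference kept its sign in gynogenetic eggs, with log2 fold changes of -1.99, -1.30 and -1.74.

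The remaining genes of this group were PPP4R1, cyfip1, slc7a6os and kifc3. PPP4R1, a regulatory subunit of protein phosphatase 4, had 9969.7, 5912 and 7971 normalized counts in F3, F4 and F6, against 14286, 18355, 11837 and 17870.0 in F1, F2, F7 and F8 (log2 fold change -0.94), and cyfip1, a partner of the RNA-binding protein FMRP and of the WAVE complex of actin, had 415 to 669 normalized counts in high and 967 to 1693 in low survival (-1.25). slc7a6os, whose yeast counterpart Iwr1 brings RNA polymerase II into the nucleus, had 3155, 2799 and 2517 normalized counts in F3, F4 and F6, against 4936, 5129, 4935 and 4872 in F1, F2, F7 and F8 (-0.78). The low-survival values of slc7a6os differed little from clutch to clutch. Of the 16 named genes with the lowest p outside the calls, 10 kept the groups apart in gynogenetic eggs, beside 20.9% of all higher and 21.2% of all lower genes without overlap in control eggs. These genes were picked by p, and both pools share their mothers, so the count is a description.

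**Figure D4:**
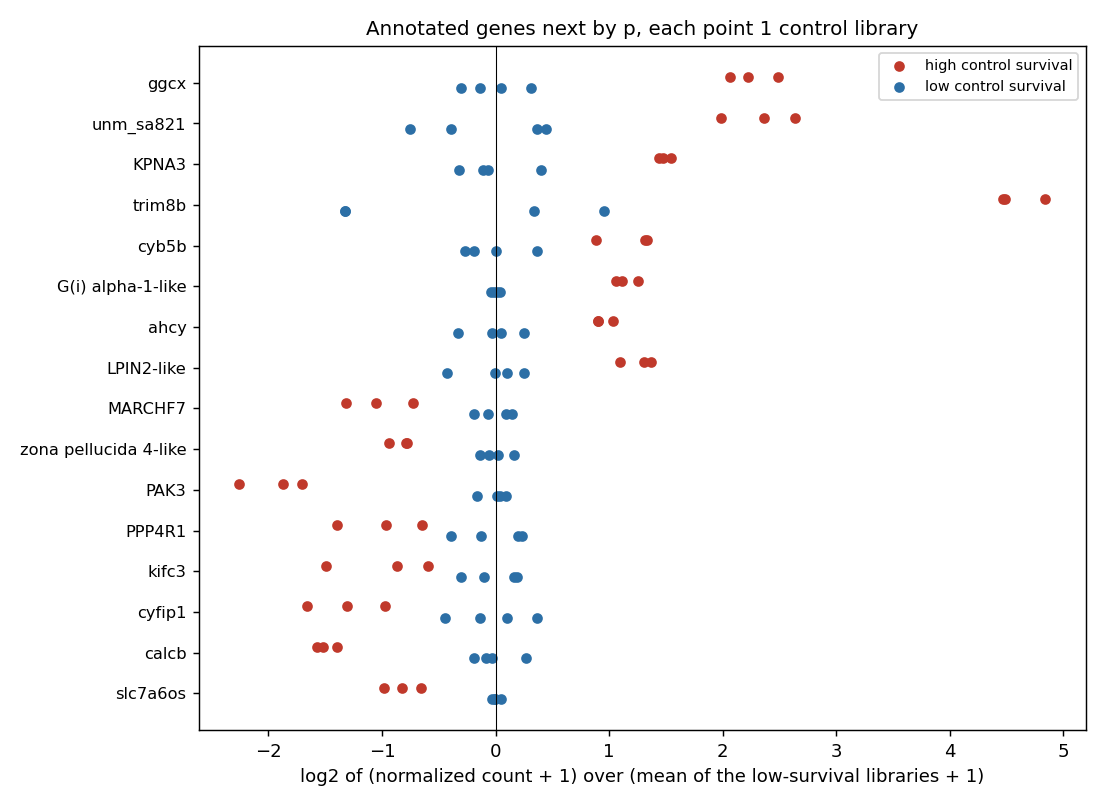
Level of the 16 named genes with the lowest p that edgeR did not call, 8 higher and 8 lower in high survival, as log2 of (normalized count + 1) over (mean of the low-survival libraries + 1). Each point is 1 control library, red for high and blue for low survival, and in all 16 genes the red and blue points do not overlap.

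When the annotated genes of the list were ordered by what their products do, each role held genes of both directions, apart from roles of 1 or 2 genes. The 12 roles, chosen after the values were seen, held 121 genes, of which 71 were fitted higher and 50 lower. The groups did not overlap for 114 of them (background 3.82% higher and 3.12% lower). EdgeR called 0 of them, with 74 at an unadjusted p below 0.05, beside 1764 of all 30919 detected genes. DESeq2 called 6 (background 0.128% higher and 0.104% lower). In gynogenetic eggs 29 of the 114 also kept the groups apart in the same direction, beside 20.9% of all higher and 21.2% of all lower genes without overlap in control eggs. The counts describe a list chosen by survival in these libraries and are no test of a role. Most or all genes of every role had the same sign in gynogenetic eggs, as did 57 of the 58 genes called by DESeq2. The pools share their mothers and the share over all detected genes was not computed. An equal sign is therefore not particular to any role named below. Beside each gene, a value in parentheses is its fitted log2 fold change of high minus low survival.

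Of 14 genes of the spindle, the centrosome and microtubule motors, 6 were higher and 8 lower, and in gynogenetic eggs all 14 had the same sign but overlapping groups. nde1, a partner of dynein at centrosomes and kinetochores, had 1325, 1076 and 1181 normalized counts in F3, F4 and F6, against 697, 651, 652 and 594 in F1, F2, F7 and F8 (log2 fold change 0.91 ± 0.32, SE). Its partner lissencephaly-1, from the 2 genes pafah1b1a and PAFAH1B1, was also higher, with 3899.5 to 4477 normalized counts in high and 2379 to 3089 in low survival and 592 to 651 normalized counts in high and 389.9 to 529 in low survival (log2 fold changes 0.64 and 0.54). Lower were CNTLN, centlein of the centriole, with 432 to 661 normalized counts in high and 1039.7 to 1280.2 in low survival (-1.13), and the 2 genes annotated as kif2c, a kinesin that takes microtubules apart, with 35332 to 42225 normalized counts in high and 44598 to 60779 in low survival for ENSOMYG00000046140 and 21549 to 24909 normalized counts in high and 26129 to 32768 in low survival for ENSOMYG00000017570 (-0.47 and -0.37). The sequences of such gene pairs were not compared, so how well reads were told apart between the 2 genes was not tested.

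Of 7 genes of the cell cycle, replication and cohesion, 5 were higher and 2 lower. In gynogenetic eggs 6 of the 7 had the same sign, but only 1 also kept the groups apart in the same direction. The loader of cohesin, the ring that holds sister chromatids together, has the subunits NIPBL and MAU2, and both were higher. Whether they change together was not tested. NIPBL had 108, 96.1 and 89.5 normalized counts in F3, F4 and F6, against 13.5, 43.4, 42.3 and 19.5 in F1, F2, F7 and F8 (log2 fold change 1.76), and MAU2 had 197, 210.4 and 212 normalized counts in F3, F4 and F6, against 104, 130.2, 112 and 71.5 in F1, F2, F7 and F8 (1.02). dbf4, which activates the kinase that starts replication, had 4839, 4989 and 5604 normalized counts in F3, F4 and F6, against 1900.0, 1981, 4727 and 1399 in F1, F2, F7 and F8 (1.08). F7 came near the high-survival clutches for dbf4, and the groups stayed apart by little.

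Of 18 genes of mitochondria and energy metabolism, 9 were higher and 9 lower. idh3g, a subunit of isocitrate dehydrogenase of the citrate cycle, had 189, 199.5 and 247 normalized counts in F3, F4 and F6, against 71.2, 86.8, 184 and 110.5 in F1, F2, F7 and F8 (log2 fold change 0.94). F7 had the highest of the low-survival values for idh3g, just below the high-survival clutches. TKT, transketolase of the pentose phosphate pathway, was lower, with 124 to 179.6 normalized counts in high and 282 to 306 in low survival (-0.87). alas1, the first enzyme of haem synthesis, had 8949 to 9788 normalized counts in high and 11563 to 13690.0 in low survival (-0.38), and COX5B, a subunit of cytochrome c oxidase, 19252 to 21531 normalized counts in high and 23525 to 27204 in low survival (-0.27). Higher were pcxa, pyruvate carboxylase, with 517 to 629 normalized counts in high and 321 to 366 in low survival (0.76), and mccc1, of leucine breakdown, with 498 to 633 normalized counts in high and 282 to 399 in low survival (0.74).

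Of 10 genes of lipids and sterols, 8 were higher and 2 lower. gramd1c, of a family that moves cholesterol from the plasma membrane to the endoplasmic reticulum, had 26664, 29948 and 35672 normalized counts in F3, F4 and F6, against 21378, 12965, 23510.0 and 15585 in F1, F2, F7 and F8 (log2 fold change 0.78), but the log2 fold change was 0.01 in gynogenetic eggs. sacm1la, a phosphatase of phosphatidylinositol phosphates, had 8989, 8638 and 8652 normalized counts in F3, F4 and F6, against 5182, 6277, 5911 and 5229 in F1, F2, F7 and F8 (0.67 ± 0.20, SE), and a log2 fold change of opposite sign, -0.26, in gynogenetic eggs. acsl4b, which activates long-chain fatty acids, was lower, with 310.4, 481 and 329.7 normalized counts in F3, F4 and F6, against 641, 609.6, 562 and 682 in F1, F2, F7 and F8 (-0.70).

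Of 13 genes of the secretory pathway and membrane traffic, 9 were higher and 4 lower, with the same sign for all 13 in gynogenetic eggs. Beside ggcx, atl1, an atlastin that fuses tubules of the endoplasmic reticulum, had 1365, 1210.0 and 1738 normalized counts in F3, F4 and F6, against 212, 533, 773 and 537 in F1, F2, F7 and F8 (log2 fold change 1.52 ± 0.42, SE). ssr1, of the translocon-associated complex, had 759, 954 and 716 normalized counts in F3, F4 and F6, against 202, 327, 468 and 353 in F1, F2, F7 and F8 (1.30 ± 0.39, SE), and a log2 fold change of 1.54 in gynogenetic eggs, where the groups were also apart. GANAB, a glucosidase that trims N-glycans, had 1994 to 2284 normalized counts in high and 825 to 1579.6 in low survival (0.89), and AP2A2, of the clathrin adaptor of endocytosis, 469 to 577 normalized counts in high and 227 to 317 in low survival (1.03). Lower were atp6v1h, of the proton pump of acidic organelles, with 14200.0 to 14782 normalized counts in high and 16841 to 23766 in low survival (-0.48), and ccdc47 of the endoplasmic reticulum, with 6462 to 7677 normalized counts in high and 8315 to 12241 in low survival (-0.56).

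Of 13 genes of splicing, RNA modification, mRNA decay and translation, 6 were higher and 7 lower. The splicing factors snrpa, snrnp27, srsf1a and sf3a1 were lower, with log2 fold changes of -0.60, -0.46, -0.64 and -0.28, while rbfox2, a tissue-specific splicing regulator, and ddx39b, a helicase of splicing and mRNA export, were higher (1.40 and 1.09). snrpa, of the U1 particle, had 14310.0, 13308 and 14637 normalized counts in F3, F4 and F6, against 22764, 23255, 19907 and 21403 in F1, F2, F7 and F8. pus7, which converts uridine to pseudouridine, had 2104, 2081 and 1832 normalized counts in F3, F4 and F6, against 914, 1089, 1175 and 877 in F1, F2, F7 and F8 (1.02 ± 0.29, SE). caprin1a, an RNA-binding protein of stress granules, had 5703 to 7697 normalized counts in high and 9852 to 11385 in low survival (-0.58).

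Of 15 genes of chromatin and transcription, 9 were higher and 6 lower. ctcf, the zinc-finger protein of chromatin loops, had 2241, 2222 and 2399 normalized counts in F3, F4 and F6, against 1480.4, 1698, 1562 and 1402 in F1, F2, F7 and F8 (log2 fold change 0.61), and mbd2, which binds methylated DNA, had 40.05, 54.4 and 45.8 normalized counts in F3, F4 and F6, against 11.6, 7.89, 21.1 and 15.2 in F1, F2, F7 and F8 (1.78), both without overlap in gynogenetic eggs too. hp1bp3, a relative of linker histones, had 2705 to 3216 normalized counts in high and 1835 to 2369.7 in low survival (0.55), and cbx3a, a heterochromatin protein, 31622 to 34266 normalized counts in high and 39826 to 41184 in low survival (-0.27).

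Of 15 kinases, phosphatases and other signalling genes, 10 were higher and 5 lower. dapk3, a death-associated kinase, had 420.5, 428 and 352 normalized counts in F3, F4 and F6, against 162, 195, 178 and 152 in F1, F2, F7 and F8 (log2 fold change 1.26 ± 0.39, SE), with a log2 fold change of 1.03 and no overlap in gynogenetic eggs. ppp2r2ab, a regulatory subunit of phosphatase 2A, had 1056, 931 and 1502 normalized counts in F3, F4 and F6, against 469.7, 552, 674 and 223 in F1, F2, F7 and F8 (1.31). acvr1ba, a receptor of activin and Nodal ligands, had 1680.3, 1659.8 and 1469 normalized counts in F3, F4 and F6, against 986, 746, 1015 and 875 in F1, F2, F7 and F8 (0.86). MAPK14, the stress-activated p38 kinase, had 931 to 1277 normalized counts in high and 599 to 654 in low survival (0.83), and sirt2, a deacetylase of tubulin, 507 to 656 normalized counts in high and 245 to 411 in low survival (0.97).

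Of 9 genes of the ubiquitin system, 5 were higher and 4 lower. fbxl7, an F-box protein, was lower, with 18.4, 34.5 and 26.2 normalized counts in F3, F4 and F6, against 96.3, 114, 75.5 and 154 in F1, F2, F7 and F8 (log2 fold change -2.02 ± 0.61, SE). ube2v1, a partner of ubiquitin-conjugating enzymes, had 4202, 4649 and 4201 normalized counts in F3, F4 and F6, against 2233, 2872, 3147 and 1642 in F1, F2, F7 and F8 (0.85), and MAEA, of the CTLH ligase, 1592 to 1829 normalized counts in high and 805 to 1284 in low survival (0.76). Of 4 transporters, MFSD14B and SLC5A7, the choline transporter, were higher and slc9a1b and the cation channel trpc4b lower, SLC5A7 with 12.7 to 24 normalized counts in high and 0 to 3.95 in low survival.

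**Figure D5:**
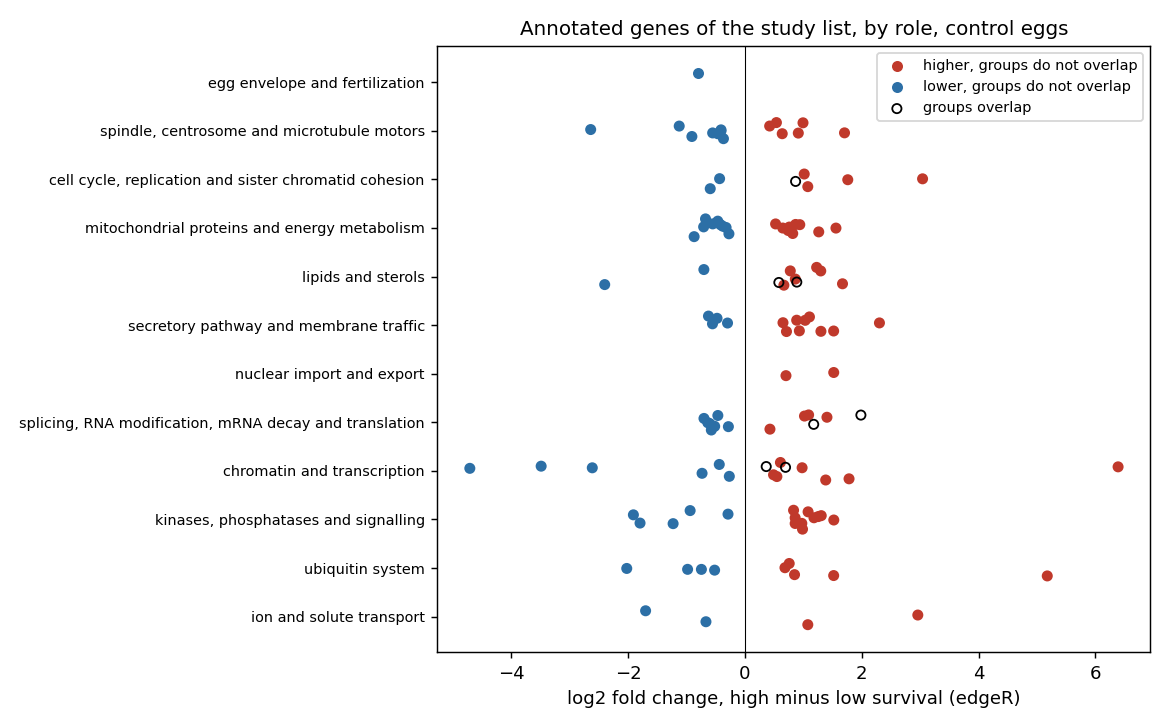
Fitted log2 fold change of high minus low survival for 121 annotated genes of the study's control list, by role, each point 1 gene. Filled red and blue points are genes whose groups do not overlap, higher or lower in high survival, and open points genes whose groups overlap. 71 points lie to the right of 0 and 50 to the left, and only roles of 1 or 2 genes lie wholly on one side.

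The study also measured dazap2, pbx2 and slc9a1b by quantitative PCR with the primer pairs shown here. It used the sequenced RNA for dazap2, and RNA of other eggs of the same females for pbx2 and slc9a1b. The paper describes the correlation of its PCR with its sequencing as moderate to low. The PCR values were not analysed here and the primers were not aligned to transcripts, so they add nothing to the sequencing values. Each runs 5′ to 3′, with the last 5 bases of the 3′ end, where extension starts, in capitals.
pbx2 forward: tcgccaaacagtgtaGCATC
pbx2 reverse: gccgtcttcatggcaTAGAT
slc9a1b forward: gtgtttggggagtccCTTCT
slc9a1b reverse: accacgcctaggaacACATC
dazap2 forward: cagcaagctgtgtacCCTCA
dazap2 reverse: tgcacatacctgggcTGATA

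In the sequencing data, dazap2, which binds the germ cell protein DAZ, had 3936, 4408 and 4181 normalized counts in F3, F4 and F6, against 2476, 2492, 3129 and 2534 in F1, F2, F7 and F8 (log2 fold change 0.69 ± 0.24, SE, edgeR adjusted p = 0.812). In gynogenetic eggs it had 2117, 4159.9 and 1045 normalized counts in F3, F4 and F6, against 1784, 4124, 1137 and 3734 in F1, F2, F7 and F8. The control eggs were apart and the gynogenetic eggs overlapped, with F2 of the low-survival group among the highest. pbx2, a homeobox cofactor of Hox proteins, had 2056, 2113 and 2183 normalized counts in F3, F4 and F6, against 3850.1, 3872, 3253 and 3433 in F1, F2, F7 and F8, and 3083, 2695 and 2301 normalized counts in F3, F4 and F6, against 4524, 3197, 4154 and 4298 in F1, F2, F7 and F8 among gynogenetic eggs, without overlap in either pool. slc9a1b, a sodium/hydrogen exchanger, had 2578, 2318 and 2087 normalized counts in F3, F4 and F6, against 4376, 3766, 2848 and 4157 in F1, F2, F7 and F8 and overlapped in gynogenetic eggs. None of the 3 was called by edgeR, and their exact permutation p-values of 0.0286, 0.0286 and 0.0571 come from libraries that also chose them.

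Whether the difference between the survival groups itself differed between control and gynogenetic eggs was tested over all detected genes. Without pairing of the libraries edgeR called 0 genes (440 at an unadjusted p below 0.05), and with the female as a replicate block 9 genes (1202 at an unadjusted p below 0.05). None of the 3 genes called in control eggs was among the 9. The gynogenetic eggs alone gave 0 higher genes and 1 lower gene with edgeR (1596 at an unadjusted p below 0.05) and 41 genes with DESeq2.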

How the data were processed

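Polyadenylated RNA of 2 to 3 eggs per library, with an RNA integrity number above 8, was sequenced from stranded libraries. The authors trimmed reads, mapped them with STAR 2.7.5c to OmykA_1.1 and used HTSeq 1.99.2 for counts per Ensembl gene, after FastQC 0.11.9. The deposited values are unnormalized counts of 64494 genes, and 5 summary lines were left out. Strand handling was not given in the sources used here, so overlapping and antisense genes may share counts. Of the non-zero counts in control libraries, 99.7% to 99.8% are even numbers, so a count of 2 may stand for 1 fragment. The counts were used as deposited. The female of a library was taken from the study's list of libraries through the library number.

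The main test was edgeR 4.0.16 (quasi-likelihood, TMM, R 4.3.3) on the 7 control libraries, with Benjamini-Hochberg adjustment over all detected genes and a threshold of 0.05. DESeq2 1.42.0, limma 3.58.1 with a prior count of 2, other filters and covariates, and the omission of each female were alternatives. Permutation tests were exact and two-sided. Each SE was back-calculated as the absolute log2 fold change over the square root of edgeR's F statistic. It is thus approximate, most of all for genes near 0 in 1 group. The test was tried on simulated data. The 2 libraries of a female come from 1 clutch. Their deviations from the mean of all 7 libraries of their pool correlated with r of 0.492 to 0.657, against at most 0.0834 between females. These correlations used genes with a mean of at least 10 normalized counts. The female was therefore used as a replicate block in the alternative test of both pools. The main test of both pools and the fit of all 14 libraries had no such block. They treated the 2 libraries of a female as independent. Within a pool, samples are separate females, and p-values measure the spread between their libraries of 2 to 3 eggs. In that spread, differences between females, between eggs and between preparations cannot be told apart.

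Members, lists and groups were chosen with earlier results of these data known. Named were all genes called, the 8 named genes next by p in each direction with a mean of at least 10 normalized counts, up to 3 members of each gene list, the genes with a PCR assay and, chosen after their values were seen, genes of roles, genes present in 1 group only and genes called by DESeq2. Of the gene lists, those for mRNA storage and decay, antioxidants, apoptosis, egg quality markers and ribosomal proteins had 0 members with a name at hand, the others 1 to 9, and 0 were called in any list. Primer sequences come from the study's supplement. RefSeq's USDA_OmykA_1.1 table gave coordinates. Columns of the study's own statistics were not used. Results of some genes are not reported here.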

Additional observations from a re-analysis of the deposited data

Results flagged for a closer look

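Among the 4 low-survival control libraries, 1 library stood far from the other 3 by Dixon's test for 3 of the genes examined. Examined were the 43 named genes refitted under the alternatives and the genes present in 1 group only. Most genes named by role were not examined. ENSOMYG00000035118 had 62.8 normalized counts in F8, against 11.8 to 19.2 in F1, F2 and F7. dazap2 had 3129 in F7, against 2476 to 2534 in the other 3. e2f1, a transcription factor of the G1 to S transition, had 5.01, 5.44 and 8.73 in the high-survival clutches F3, F4 and F6, against 3.02 in F7 and 0 in F1, F2 and F8 of low survival. For e2f1 the F7 value stands for at most a few fragments, against libraries at 0, so the test says little there. Chance sets about 1 in 20 groups apart in this way, a rate for normally distributed values and not for values at 0. Whether 3 genes are more than chance gives among all genes examined was not tested. Groups of 3, such as high survival, were not examined with Dixon's test.

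For 9 genes the difference between high and low survival itself differed between control and gynogenetic eggs, in the edgeR test with the female as a replicate block. The values are log2 fold changes of high over low survival in control eggs minus those in gynogenetic eggs, with the adjusted p of that test. None of the 9 was called in the test without the block.

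ENSOMYG00000075341 was the clearest (log2 difference -4.70, edgeR adjusted p = 6.16e-07). Its control eggs had 5.01, 0 and 8.73 normalized counts in F3, F4 and F6, against 508, 619, 9.06 and 4.33 in F1, F2, F7 and F8, and its gynogenetic eggs 355, 156 and 1.41 normalized counts in F3, F4 and F6, against 418, 546, 1.57 and 10.9 in F1, F2, F7 and F8. Eggs of F3 and F4 thus differed strongly between the pools of 1 clutch, and those of the other 5 females far less. GATA2, a zinc-finger factor of blood development, differed in many clutches (2.56, edgeR adjusted p = 0.000309). Its control eggs had 364, 426 and 823 normalized counts in F3, F4 and F6, against 173, 505, 453 and 93.1 in F1, F2, F7 and F8, and its gynogenetic eggs 49.7, 904 and 210.4 normalized counts in F3, F4 and F6, against 399.6, 114, 1306 and 1712 in F1, F2, F7 and F8. In gynogenetic eggs F1, F4, F7 and F8, the females of increased competence for gynogenesis, thus all lay above F2, F3 and F6. The paper lists GATA2 among genes correlated with survival after gynogenetic activation, in these same libraries. The part of competence in this difference was not tested.

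In ENSOMYG00000072623 (8.65, edgeR adjusted p = 0.0392) and ENSOMYG00000062005 (7.73, edgeR adjusted p = 0.0061) several libraries were at 0, so that the fitted sizes depend on the prior count. The other values were -3.20 for ENSOMYG00000009702 (edgeR adjusted p = 0.0498), -2.40 for ENSOMYG00000017074 (0.0103), -1.75 for ENSOMYG00000071524 (0.0253), 2.36 for ENSOMYG00000014690 (0.00497) and 1.21 for ENSOMYG00000003932 (0.0224). ENSOMYG00000003932, the most abundant of the 9, had 7135, 18155 and 10349 normalized counts in F3, F4 and F6, against 17079, 17301, 12906 and 7659 in F1, F2, F7 and F8 in control eggs and 7774, 12272 and 4329 normalized counts in F3, F4 and F6, against 28534, 27915, 15782 and 13571 in F1, F2, F7 and F8 in gynogenetic eggs.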

How the results depend on the processing

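With any 1 female left out, the log2 fold changes of the 3 genes called in control eggs were -7.48 to -6.29 for ENSOMYG00000039177, 4.195 to 4.57 for ENSOMYG00000037193 and 3.44 to 3.91 for ENSOMYG00000069972. Their direction could not turn, since the groups do not overlap in these genes. The number of calls varied. DESeq2 called 32 genes higher and 26 lower, against 2 and 1 with edgeR. With competence for gynogenesis as a covariate 4 were higher, with survival as a continuous covariate 0 were higher and 0 lower, and with limma-trend 0 and 0. Leaving out 1 female at a time gave 0 to 2 higher and 0 to 2 lower genes in control eggs, and 0 to 1 higher and 0 to 1 lower in gynogenetic eggs, the 0 in control eggs coming without F7. The 3 genes themselves were called under every other alternative, except ENSOMYG00000069972 without F2. The deposited counts are nearly all even numbers, and halving them, an alternative chosen after seeing the data like robust dispersions, changed no call. The paired analysis, with the female as a replicate block, called 9 genes whose difference varied between the pools, against 0 without it. Of the named genes, 43 were refitted under the alternatives, and most genes named by role were not. Most of the 43 were picked by low p or come from the study's list for control eggs, so a kept sign says little. Among the 43 only fbxw11a, of a ubiquitin ligase, changed sign, in fits without 1 female. Its log2 fold change was -0.12 to 0.10 over those fits, of either sign, and 0.05, 0.10 and 0.01 without F2, F3 and F8. With 3 and 4 females, edgeR recovered 2.99% of 2-fold, 34.3% of 4-fold and 59.1% of 8-fold changes in the simulated data. Even large differences were thus often missed. Genes without a name could not be placed in any list.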
